A study of Mus musculus with 18 samples.

Results

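The genes of the cell division cycle were followed in light-damaged mouse retina. They are 45 gene symbols, chosen by name as cyclins, cyclin-dependent kinases (CDKs), CDK inhibitors, replication factors and mitotic proteins, out of 23420 symbols counted, and all 45 were found in the count tables. RNA of whole retinas was sequenced from 9 wild-type BALB/cJ mice, an albino strain, with BALB/cJ mice of 8 to 10 weeks and both sexes given as those used in the study. The 3 naïve mice received neither light nor treatment. The 3 vehicle mice were exposed to white light of 15000 lux for 1 h and injected daily with DMSO, starting on the day before the light. The 3 TD139 mice received the same light and 15 mg/kg TD139, a small-molecule inhibitor of galectin-3, dissolved in DMSO. Retinas were taken 4 days after the light. No light-exposed group went without injections and no injected group went without light, so light and DMSO cannot be told apart where vehicle mice are set against naïve mice.

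Neurons of the adult retina have left the cell cycle, whereas microglia can divide locally after injury and Müller glia can re-enter the cycle under some conditions. In a dividing cell, cyclin D with CDK4 or CDK6 and cyclin E with CDK2 carry the cell through G1, and E2F factors then switch on the genes for DNA synthesis. The MCM helicase is loaded on origins before S phase, cyclins A and B with CDK1 drive entry into mitosis, and the transcripts of many mitotic proteins accumulate in G2 and M through promoter elements bound by the DREAM and FOXM1 complexes. Several of these proteins, among them PCNA and the MCM subunits, also occur in cells that do not divide.

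Promoters of 4 genes are shown because these genes rose in light-exposed vehicle mice and fell with TD139, as described below. Of the 45 genes, 37 had an entry in the RefSeq promoter table (build GRCm38.p6), and Ccnd1, the fifth gene with this pattern, had none. The 250 bases before each transcription start were searched on both strands for the CHR element TTTGAA, the E2F sites TTGGCGC or TTCCCGC, and the CCAAT box CCAAT, where an E2F site read as GCGCCAA can overlap a CCAAT box. The last 150 bases before the start are printed 5′ to 3′ on the strand of the gene, with every match in capitals. They lie at chr10:69352913-69353062 on the minus strand for Cdk1, chr7:135716380-135716529 on the minus strand for Mki67, chr12:24708104-24708253 on the plus strand for Rrm2 and chr11:99024190-99024339 on the minus strand for Top2a. The promoter of Cdk4, at chr10:127063385-127063534 on the plus strand, is added as that of a G1 gene with a high level in naïve mice.
Cdk1: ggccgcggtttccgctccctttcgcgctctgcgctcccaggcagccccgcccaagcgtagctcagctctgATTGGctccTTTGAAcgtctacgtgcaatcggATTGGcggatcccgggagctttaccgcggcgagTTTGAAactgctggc
Mki67: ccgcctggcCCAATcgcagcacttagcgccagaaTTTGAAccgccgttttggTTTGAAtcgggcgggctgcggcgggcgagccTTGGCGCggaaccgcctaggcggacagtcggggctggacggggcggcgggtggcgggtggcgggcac
Rrm2: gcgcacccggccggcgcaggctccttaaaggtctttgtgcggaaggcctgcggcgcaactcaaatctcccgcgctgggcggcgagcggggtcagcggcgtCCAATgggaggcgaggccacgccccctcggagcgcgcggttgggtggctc
Top2a: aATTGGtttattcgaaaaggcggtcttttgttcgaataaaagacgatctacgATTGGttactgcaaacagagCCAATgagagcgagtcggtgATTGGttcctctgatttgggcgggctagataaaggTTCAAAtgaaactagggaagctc
Cdk4: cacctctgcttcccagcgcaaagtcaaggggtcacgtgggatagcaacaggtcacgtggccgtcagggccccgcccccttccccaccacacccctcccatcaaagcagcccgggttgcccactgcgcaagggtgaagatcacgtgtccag
A CCAAT box was present in all 4 windows of the genes that moved both ways and a CHR element in 3 of them, those of Cdk1, Mki67 and Top2a. These 4 genes were chosen by their result and passed the filter on low reads, described below, only through the vehicle mice. A CHR element was also present for Kif11 and Mcm2, called in neither comparison with vehicle mice in edgeR. Ccnb2 and Cdc20, not called with light and vehicle there, had one too. A link of these elements to the changes was not tested. In the window of Cdk1, CHR elements began 71 and 15 bases before the start, and in that of Mki67 they began 116 and 98 bases before it. The 250-base window of Cdk4 held none of the 3 elements. Over the 41 windows of the 37 genes, 68.3% had a CCAAT box, 29.3% an E2F site and 17.1% a CHR element, where the shares over all 32851 windows were 33.8%, 5.62% and 16%. By role, the CCAAT box was found in 9 of 9 windows of the G2 and M regulators and 6 of 7 of the mitotic chromosome and spindle genes, in 6 of 8 of the licensing genes, in 5 of 7 of the S phase synthesis genes, and in 1 of 5 windows each of the G1 genes and the CDK inhibitors. The E2F site was most frequent in the licensing genes, with 5 of 8 windows. A match is a run of letters and not a measured binding site.

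The libraries held 26171887 to 30201517 reads on genes per mouse, and 3 reads, taken as the floor, stood for 0.101 to 0.119 CPM, a level in which reads are scaled to library size after TMM normalisation. Reads outside genes made up 21.3 to 22.8% in TD139 mice, above all naïve (19.1 to 19.9%) and vehicle mice (16.5 to 19.4%), and their part in the comparisons with TD139 mice was not tested. Where no other tool is named, a gene that passed or was called had an adjusted p under 0.05 in edgeR with all mice. The retinal origin of the samples was visible in the 12 rod markers, which summed to 48598 CPM or more in every mouse, with means of 89155, 59029 and 76477 CPM in naïve, vehicle and TD139 mice. Of these markers, 8 (66.7%, against 2.89% of all genes) were lower in vehicle than in naïve mice and 5 (41.7%, against 17.2%) higher in TD139 than in vehicle mice. In bulk tissue, fewer cells of a type and less RNA per cell cannot be told apart. The 20 microglia and macrophage markers, none of them at 0 in all mice, summed to 84.2 to 88.4 CPM in naïve, 356 to 645 CPM in vehicle and 62.3 to 217 CPM in TD139 mice, and 11 of them (55%, against 4.91% of all genes) were higher with light and vehicle and 14 (70%, against 16.2%) lower with TD139, where Ptprc and Fcrls passed the filter on low reads only through the vehicle mice. Of 13 Müller glia markers, 8 (61.5%) were higher and 6 (46.2%) lower in the same comparisons, and of 5 astrocyte markers, which summed to 89.0, 290 and 64.7 CPM on average in naïve, vehicle and TD139 mice, 1 (20%) was higher and 3 (60%) lower. The part of these cells in the results below was not tested. The 11 lens markers summed to 9516 CPM in vehicle mouse 2 and to at most 430 CPM in each other mouse, so results are also given without that mouse.

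The summed level of the 45 genes moved little, at 488 ± 18.4 CPM in naïve, 510 ± 30.0 in vehicle and 470 ± 14.7 in TD139 mice (SD, n = 3). This sum is carried by 7 genes above 20 CPM in naïve mice, namely Cdk4, Cdkn1b, Cdkn2c, Mcm7, Pcna, Rrm1 and Ccna2. Per kilobase of the longest annotated transcript, Pcna, the sliding clamp of DNA polymerase, had the highest naïve level at 33.2 CPM per kb, followed by Cdk4 at 29.5 and the CDK inhibitor gene Cdkn1b at 20.3. At the other end, 14 genes had a mean below 1 CPM in naïve mice. Naïve mice 1, 2 and 3 had 8, 3 and 6 of the 45 genes at 3 reads or fewer, the vehicle mice 0, 2 and 0, and the TD139 mice 0, 8 and 6. The 2 genes at this level in vehicle mouse 2 were Ccnb1 with 2 reads and Bub1 with 3.

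**Figure D1:**
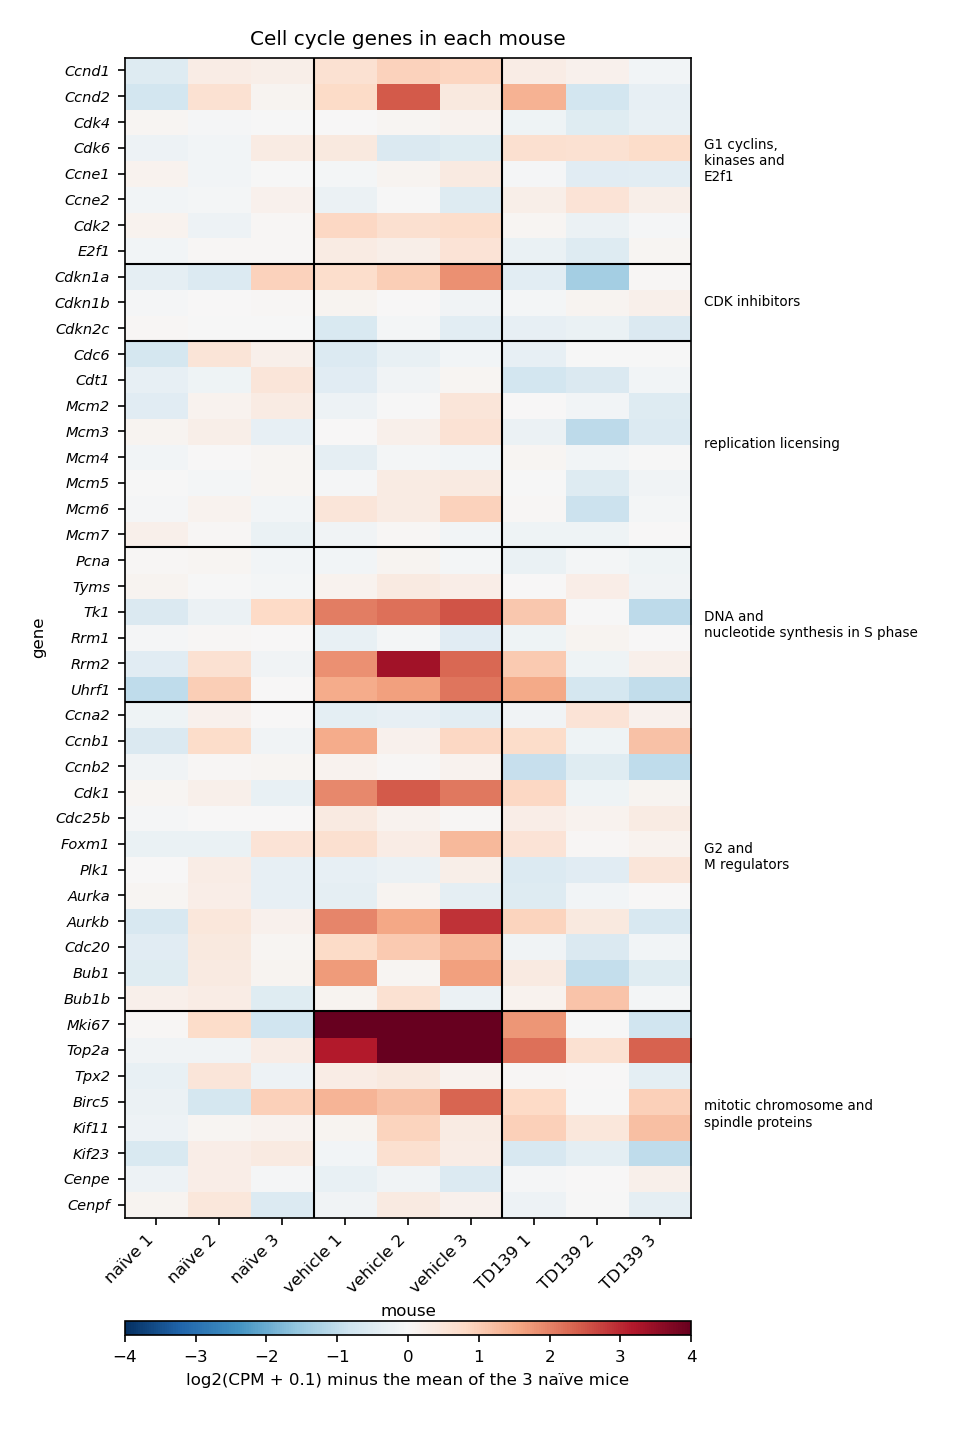
Level of the 45 cell cycle genes in each of the 9 mice, as log2(CPM + 0.1) minus the mean of the 3 naïve mice, with genes as rows grouped by role and colours capped at 4 in either direction. The rows of Mki67, Top2a, Rrm2, Tk1 and Cdk1 are red in the 3 vehicle mice, whereas most rows of the licensing genes and CDK inhibitors stay pale in all mice.

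The first comparison asks how light with vehicle differs from the untouched retina. Mki67, Top2a, Cdk1 and Rrm2, which serve mitosis and the supply of deoxynucleotides, rose from between 0 and 8 reads per naïve mouse to between 16 and 117 reads per vehicle mouse. Ccnd1, the gene of cyclin D1, was expressed in naïve retina and rose 1.70-fold. The abundant replication genes Pcna, Mcm2, Mcm4, Mcm7 and Rrm1 did not pass in edgeR.

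Of the 42 genes tested, 5 (11.9%) were higher in vehicle than in naïve mice at an adjusted p under 0.05 in edgeR, where 4.91% of all 15196 tested genes were higher. A log2 fold change of at least 2 was also reached by 4 of them (9.52%), against 1.24% of all genes. None was lower in edgeR, against 2.89% of all genes, with 2 at an unadjusted p under 0.05, against 13.2%. DESeq2 also called none lower, against 5.48% of all genes, and limma voom called Ccna2, Cdkn2c and Rrm1 lower (7.14%, against 10.2%). The groups did not overlap in 14 genes that were higher (33.3%, against 16.7% of all genes) and 3 that were lower (7.14%, against 16.6%). The 42 genes had a median log2 fold change of 0.21, beside −0.00 for all genes. These counts are not independent of the filter on low reads, which 6 of the 42 genes (Tk1, Rrm2, Uhrf1, Cdk1, Mki67 and Top2a) passed only through the vehicle mice. Of the other 36 genes, Ccnd1 alone was higher (2.78%), 0 reached a log2 fold change of 2 and the median was 0.12. With no filter at all, the same 5 of 45 genes were higher (11.1%), against 3.47% of 19011 genes, and none was lower, against 1.9%.

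The calls rested on few mice. All 5 genes were higher in each of the 3 vehicle mice than in any naïve mouse, but without naïve mouse 1, 2 or 3 the number called was 1, 0 and 1, and without vehicle mouse 3 it was 1. Top2a was the gene left in each of the fits with 1, and without naïve mouse 2 a single gene of all 15447 tested was called in edgeR, while 11 of 44 cell cycle genes (25%, against 12% of all genes) were higher at an unadjusted p under 0.05. Without vehicle mouse 1 the number was 4 (9.52%, against 1.42% of all genes), with Ccnd1 no longer called. Without vehicle mouse 2, the mouse with lens transcripts, it was 5 (11.4%, against 4.05%), with Aurkb in place of Ccnd1. Of all genes, the share called higher was 0.402%, 0.00647% and 0.907% without naïve mouse 1, 2 and 3 and 0.423% without vehicle mouse 3. Fold changes of the scarce genes moved as well. Without naïve mouse 2 the log2 fold change of Mki67 was 6.29 in place of 5.14 and that of Rrm2 was 4.19 in place of 3.39, and without vehicle mouse 2 that of Rrm2 was 2.76. Without naïve mouse 3 Top2a had 0 reads in the naïve mice left, and no fold is given. DESeq2 called 9 of 45 genes (20%), adding Cdk2, Tk1, Birc5 and Aurkb, where 7.02% of all genes were higher.

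**Figure D2:**
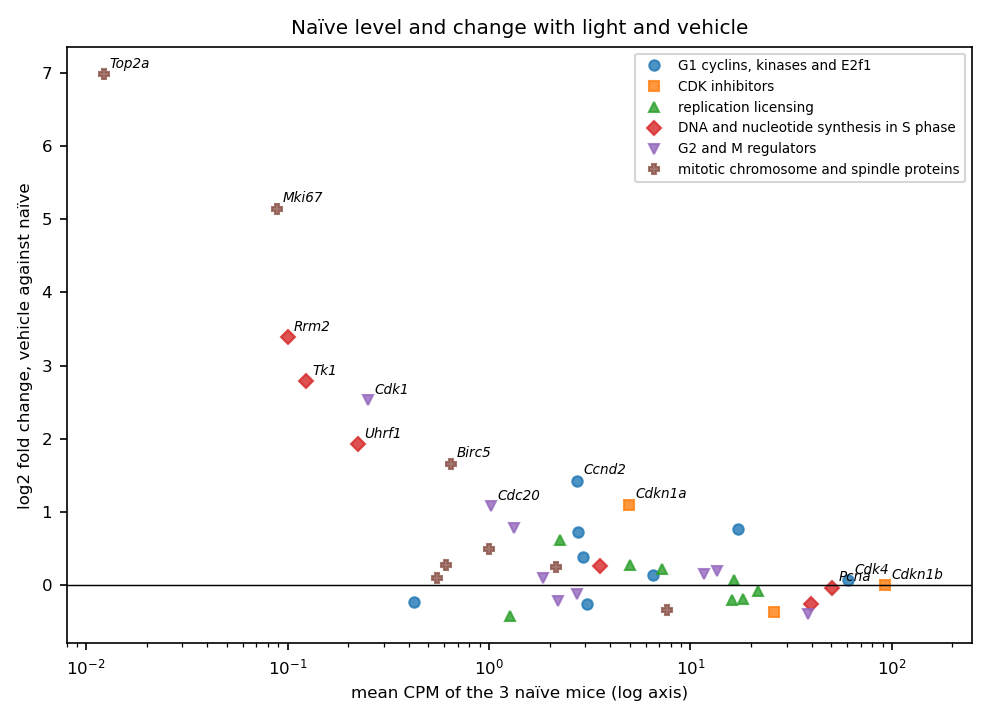
Mean CPM of the 3 naïve mice (log axis) against the log2 fold change of vehicle over naïve mice for the 42 tested genes, with a symbol for each role. Both axes use the naïve values, and genes near the left edge were tested only because their vehicle level was higher. The genes above 20 CPM lie between −0.40 and 0.08.

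Grouped by naïve level, 11 of the 14 genes below 1 CPM were tested, and their median log2 fold change was 1.93 with 4 called higher. All 4 are among the 6 genes that passed the filter only through the vehicle mice, and the other 5 genes of this range had a median of 0.28 with none called in edgeR. Of the 14 genes between 1 and 5 CPM none passed in edgeR and the median was 0.33. Among the 10 genes between 5 and 20 CPM, Ccnd1 was called and the median was 0.15. The 7 genes above 20 CPM lay between −0.40 and 0.08, with none called. No test was made of this order, since the naïve values enter both the level and the fold change.

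The second comparison asks how light-exposed retinas with TD139 differed from those with vehicle. The genes that had risen were lower again with TD139, and others of G1, licensing and mitosis were lower with them. Mki67 was 17.3-fold, Top2a 6.78-fold, Rrm2 6.64-fold, Tk1 5.90-fold and Cdk1 4.37-fold lower in TD139 than in vehicle mice. Cdkn1a, the gene of the CDK inhibitor p21, was 3.37-fold lower, and Ccnd1, Cdk2, Cdk4, Mcm3, Mcm6, Ccnb2 and Cdc20 fell by between 1.32-fold and 2.69-fold. Ccna2, which encodes cyclin A2, was 1.53-fold higher.

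In this comparison 13 of the 42 genes (31%) were lower at an adjusted p under 0.05 in edgeR, against 16.2% of all tested genes, and 1 (2.38%) was higher, against 17.2%. A log2 fold change of −2 or below was reached by 5 of them (11.9%), against 1.53% of all genes. The TD139 mice lay below the vehicle mice without overlap in 17 genes (40.5%, against 25.4%) and above them in 4 (9.52%, against 26%). The median log2 fold change was −0.40, beside −0.02 for all genes. Leaving aside the 6 genes that passed the filter only through the vehicle mice, 8 of 36 were lower (22.2%), 0 reached a log2 fold change of −2 and the median was −0.30. With no filter, the same 13 of 45 genes were lower (28.9%), against 11.9% of 19011 genes, and Ccna2 was higher (2.22%), against 13.2%. The vehicle mice enter both comparisons, so a gene that chance made high in these mice would move in both.

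**Figure D3:**
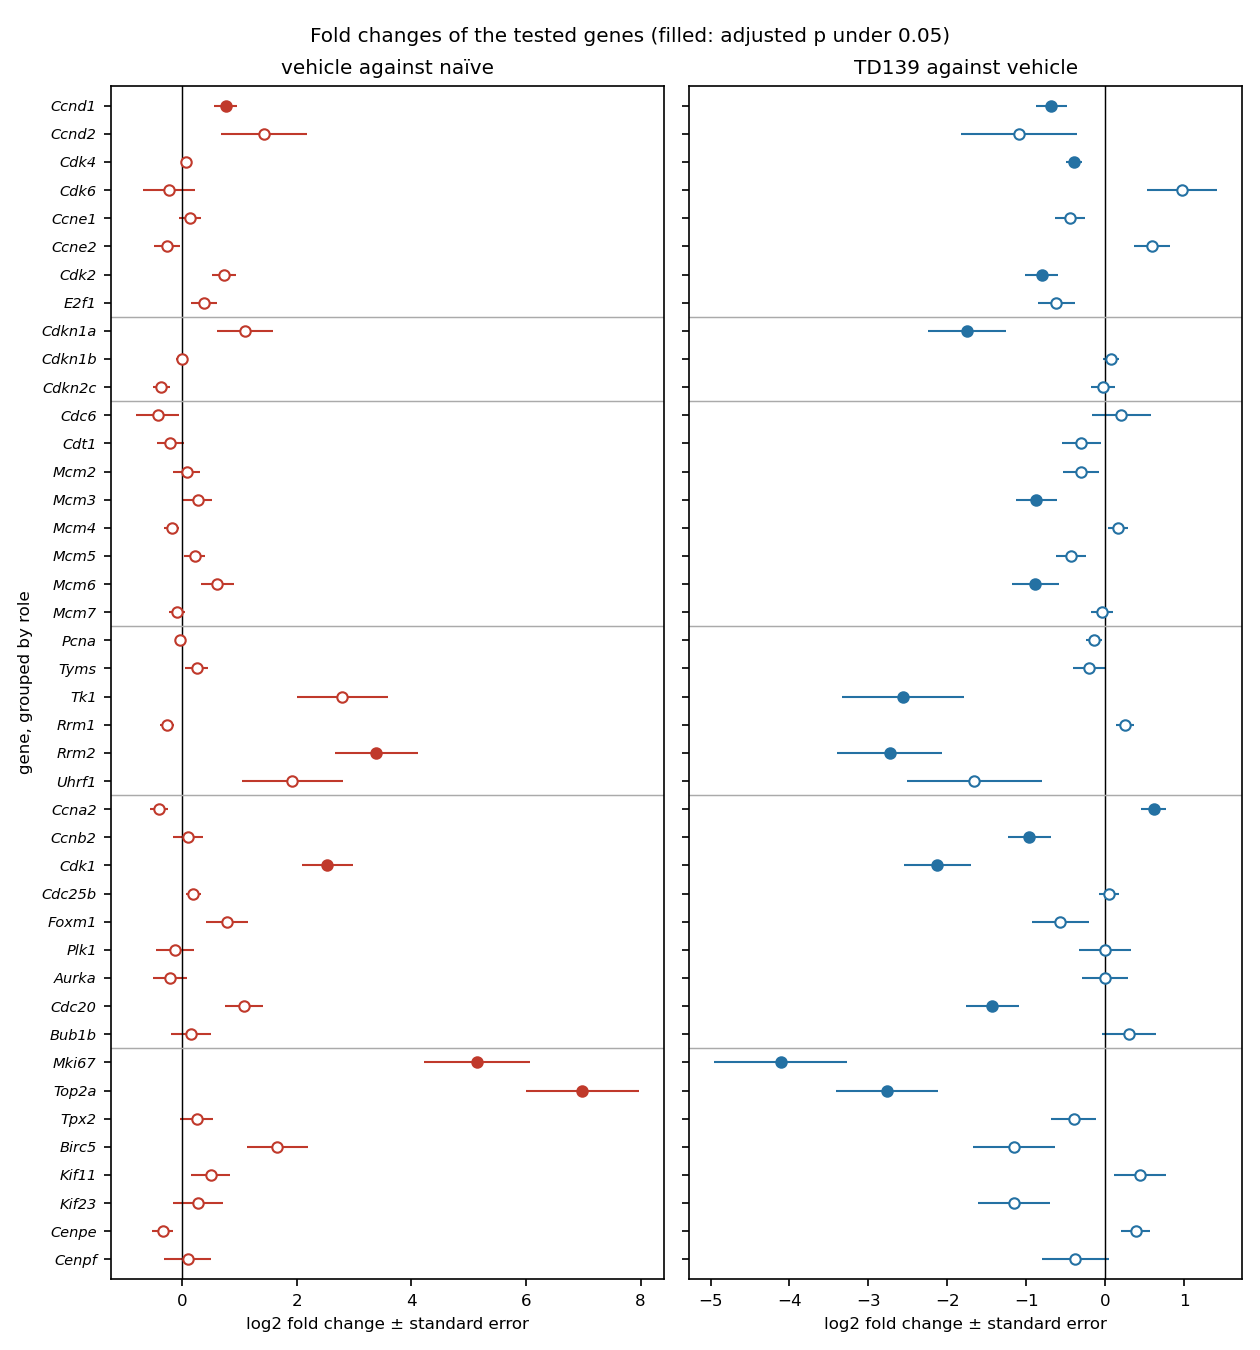
Log2 fold changes with standard errors of the 42 tested genes in both comparisons with the vehicle mice, ordered by role, with filled symbols for an adjusted p under 0.05 in edgeR. Filled symbols number 5 on the left, all above 0, and 14 on the right, of which Ccna2 is above 0 and the other 13 are below.

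Single mice also mattered here. Without TD139 mouse 2 the number of lower genes was 3 (Cdk1, Top2a and Ccnb2), without TD139 mouse 3 it was 5 (Cdk1, Top2a, Mki67, Cdkn1a and Cdc20) and without vehicle mouse 3 it was 6 (Cdk1, Top2a, Mki67, Rrm2, Cdk2 and Cdc20). In these fits 6.82%, 11.4% and 14.3% of the cell cycle genes were lower, against 4.91%, 5.62% and 8.37% of all genes, and Ccna2 lost its call. Cdk1 and Top2a were called lower in all 9 fits with a mouse left out. Without TD139 mouse 1, which had the highest sum of microglia markers of its group, the number was 16 (36.4%, against 19.0% of all genes), and the log2 fold change of Mki67 was −6.31 in place of −4.11, that of Tk1 −3.92 in place of −2.56 and that of Rrm2 −3.49 in place of −2.73. Without vehicle mouse 2 it was 14 (31.8%, against 12%), with Ccnd1 lost and Aurkb and Bub1 gained, and the log2 fold change of Rrm2 was −2.10.

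**Figure D4:**
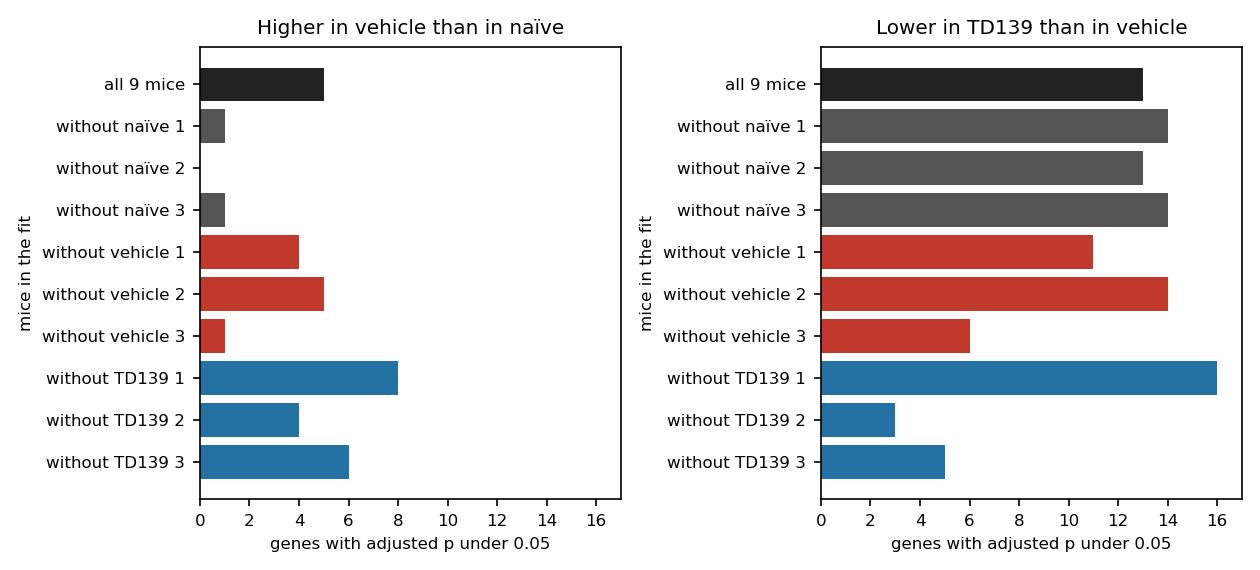
Number of cell cycle genes with an adjusted p under 0.05 in edgeR with all 9 mice and with single mice left out (bars from 0), on the left those higher in vehicle than in naïve mice and on the right those lower in TD139 than in vehicle mice. The bars on the left run from 0 to 8 around 5 with all mice, and those on the right from 3 to 16 around 13.

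The third comparison sets the TD139 against the naïve mice, that is, light with inhibitor against no light. None of the 42 genes was called in either direction in edgeR, against 2.72% of all genes higher and 2.38% lower. At an unadjusted p under 0.05, 2 were higher, against 15.5% of all genes, and 4 lower, against 14.1%. The groups did not overlap in 5 genes that were higher (11.9%, against 15.3%) and 3 that were lower (7.14%, against 16.8%), and the median log2 fold change was −0.05. Other tools made some calls. DESeq2 called Cdk4 lower (2.22%, against 6.03% of all genes), limma voom called Top2a, Birc5 and Kif11 higher (7.14%, against 19.9%) and Mcm3, Cdk4, Cdkn2c, Kif23 and Ccnb2 lower (11.9%, against 16.2%), and without a filter Top2a was higher in edgeR (2.22%, against 2.18% of all genes) and none was lower, against 1.47%. The smallest adjusted p was 0.0543, for Top2a, which had 1 read in the 3 naïve mice together and 25 in the TD139 mice, a ratio of 24.6 with an exact 95% counting interval of 4.03 to 1012. A p above the threshold does not show that these groups were alike.

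**Figure D5:**
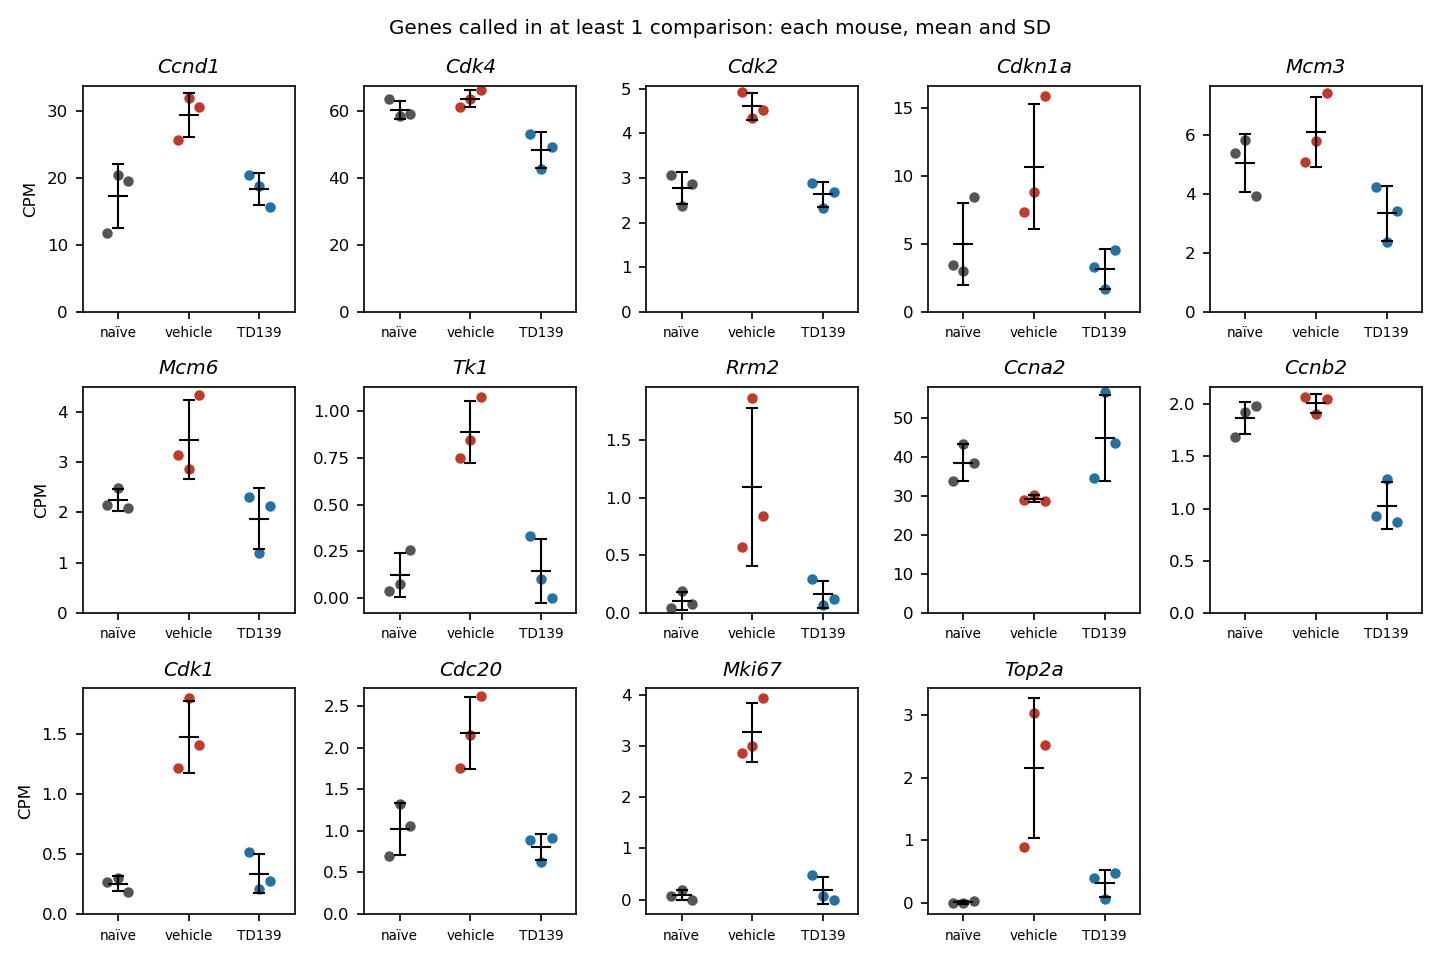
CPM of each mouse (points) with the mean and SD of each group of 3 (bars) for the 14 genes called in at least 1 comparison. In Mki67, Top2a, Cdk1, Rrm2 and Tk1 the vehicle mice stand above all other mice, while in Ccna2 they are the lowest group and in Cdk4 and Ccnb2 they are close to the naïve mice.

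Among the mitotic chromosome and spindle genes, those of the proliferation marker Ki-67 and of topoisomerase II alpha stood out. Mki67 (chromosome 7, 135689784 to 135716361, minus strand, GRCm38) had 2, 5 and 0 reads in the naïve mice, 80, 85 and 117 in the vehicle mice and 13, 2 and 0 in the TD139 mice. All vehicle mice lay above all other mice, and within the TD139 group mouse 1 was the highest. The log2 fold change was 5.14 (SE 0.93, adjusted p = 0.0196) with light and vehicle and −4.11 (SE 0.84, adjusted p = 0.00790) with TD139. Top2a (chromosome 11, 98992943 to 99024189, minus strand), whose enzyme untangles replicated DNA, had 0, 0 and 1 reads in naïve, 25, 86 and 75 in vehicle and 11, 2 and 12 in TD139 mice. No TD139 mouse reached the lowest vehicle mouse. The 186 reads of the vehicle mice against 1 in the naïve mice gave a ratio of 173 with an exact 95% counting interval of 30.6 to 6854, and the adjusted p was 0.0127. With TD139, Top2a fell by 2.76 on the log2 scale (SE 0.65, adjusted p = 0.0110).

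The other genes of this group did not pass in edgeR. Birc5, the gene of survivin, had 12, 8 and 32 reads in naïve, 45, 39 and 95 in vehicle and 28, 16 and 30 in TD139 mice, and neither its log2 fold change of 1.67 (SE 0.53, adjusted p = 0.0741) nor that of −1.15 (SE 0.51, adjusted p = 0.101) passed, although DESeq2 and limma voom called the first, which was 2.43 without naïve mouse 3. Kif11, the motor that separates spindle poles, had 22, 28 and 30 reads in naïve, 30, 54 and 38 in vehicle and 54, 40 and 61 in TD139 mice, and its highest group mean was that of the TD139 mice, with log2 fold changes of 0.50 (adjusted p = 0.355) over naïve for vehicle mice and of 0.44 (adjusted p = 0.308) over vehicle for TD139 mice. Cenpe, a kinetochore motor, had 171, 241 and 200 reads in naïve, 172, 196 and 153 in vehicle and 199, 222 and 221 in TD139 mice (log2 fold changes −0.34, adjusted p = 0.266, and 0.39, adjusted p = 0.123). Tpx2, a spindle assembly factor, differed by 0.26 (adjusted p = 0.593) and −0.40 (adjusted p = 0.298), with 44 to 79, 69 to 79 and 40 to 61 reads in the 3 groups. Kif23 and Cenpf had at most 27 reads in any mouse and passed in neither comparison in edgeR, whereas limma voom called Kif23 lower with TD139. The summed level of the 8 genes was 12.7 ± 2.26, 18.9 ± 2.37 and 14.0 ± 1.08 CPM in naïve, vehicle and TD139 mice.

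Among the G2 and M regulators, the kinase gene Cdk1 passed in both comparisons. Cdk1 (chromosome 10, 69335146 to 69352938, minus strand) had 7, 8 and 5 reads in naïve, 34, 51 and 42 in vehicle and 14, 6 and 7 in TD139 mice, so that the vehicle mice lay apart from both other groups. Its log2 fold change was 2.54 (SE 0.44, adjusted p = 0.0171) with light and vehicle and −2.13 (SE 0.42, adjusted p = 0.00693) with TD139. Cdc20, which directs the anaphase-promoting complex to its substrates, had 18, 35 and 29 reads, then 49, 61 and 78, then 24, 18 and 23 in the same order of groups, and no vehicle mouse overlapped the others. It missed the threshold with light and vehicle (log2 fold change 1.08, SE 0.33, adjusted p = 0.0677) and fell with TD139 (−1.43, SE 0.34, adjusted p = 0.0115). Ccnb2, the gene of cyclin B2, had 44, 51 and 54 reads in naïve and 58, 54 and 61 in vehicle mice, which differed by 0.11 on the log2 scale (SE 0.27, adjusted p = 0.817), and 25, 37 and 22 in TD139 mice, a fall of 0.96 (SE 0.27, adjusted p = 0.0214). With TD139 it was below the naïve mice as well (log2 fold change −0.85, adjusted p = 0.0751), without overlap.

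The gene of cyclin A2 was called higher with TD139 in edgeR, and limma voom also called Ccne2 and Rrm1 higher. Ccna2 had 880, 1146 and 1051 reads in naïve, 809, 856 and 852 in vehicle and 932, 1624 and 1099 in TD139 mice. The vehicle mice were the lowest in both comparisons without overlap, at 29.3 ± 0.856 CPM against 38.5 ± 4.69 in naïve and 44.8 ± 11.0 in TD139 mice. The log2 fold change was −0.40 (SE 0.16, adjusted p = 0.139) with light and vehicle and 0.62 (SE 0.16, adjusted p = 0.0155) with TD139. Its exons overlap those of Exosc9 on the opposite strand in the annotation, and since the strand setting of the counting is not given, reads of both genes cannot be told apart. The same holds for Cdk4 with Tspan31, Cdc20 with Elovl1, Tk1 with Afmid and Cdkn1a with AC167363.2.

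The other regulators of this group passed in neither comparison in edgeR or had too few reads. Cdc25b, the phosphatase that activates CDK1, had 341 to 374 reads in naïve, 419 to 490 in vehicle and 428 to 435 in TD139 mice (log2 fold changes 0.20, adjusted p = 0.345, and 0.05, adjusted p = 0.789). The checkpoint kinase gene Bub1b had 337, 366 and 222 reads in naïve, 339, 486 and 287 in vehicle and 337, 714 and 269 in TD139 mice, with the highest value in TD139 mouse 2, the mouse that was also highest in Ccna2. The differences of 0.16 (adjusted p = 0.794) and 0.30 (adjusted p = 0.514) were within the spread. Plk1, a mitotic kinase, had 58 to 88, 59 to 94 and 49 to 95 reads in the 3 groups (log2 fold changes −0.12, adjusted p = 0.842, and −0.01, adjusted p = 0.992). Foxm1 and Aurka passed in neither comparison in edgeR, whereas limma voom called Foxm1 higher with light and vehicle. Aurkb, Bub1 and Ccnb1 had too few reads to be tested after the filter. Aurkb, the kinase of the chromosomal passenger complex, had 0, 3 and 2 reads in naïve, 14, 10 and 31 in vehicle and 5, 3 and 0 in TD139 mice, so that the vehicle mice were the highest. In the fit with no filter its adjusted p was 0.0689 for light with vehicle and 0.0520 for TD139 against vehicle, and DESeq2 called both. Ccnb1 had at most 9 reads in any mouse.

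Of the genes that supply DNA synthesis, Rrm2 passed in both comparisons and Tk1 with TD139. Rrm2 (chromosome 12, 24708241 to 24714146, plus strand), the S phase subunit of ribonucleotide reductase, had 1, 5 and 2 reads in naïve, 16, 53 and 25 in vehicle and 8, 2 and 3 in TD139 mice. All vehicle mice were above all others, and the highest was mouse 2. It rose by 3.39 on the log2 scale (SE 0.72, adjusted p = 0.0249) with light and vehicle and fell by 2.73 (SE 0.67, adjusted p = 0.0127) with TD139. Rrm1, which encodes the large subunit of the same enzyme, had 992, 1091 and 1086 reads in naïve, 912, 1073 and 863 in vehicle and 959, 1240 and 1012 in TD139 mice, with log2 fold changes of −0.26 (SE 0.12, adjusted p = 0.182) and 0.25 (SE 0.12, adjusted p = 0.113). The difference between the subunits was not tested.

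Tk1, the thymidine kinase of S phase, had 1, 2 and 7 reads in naïve, 21, 24 and 32 in vehicle and 9, 3 and 0 in TD139 mice. No mouse of the other groups reached the lowest vehicle mouse. The log2 fold change of 2.79 (SE 0.79, adjusted p = 0.0535) with light and vehicle missed the threshold, with 3.87 without naïve mouse 3 and a call in DESeq2 and limma voom, and that of −2.56 (SE 0.77, adjusted p = 0.0266) with TD139 passed. Uhrf1, whose protein takes part in copying DNA methylation to new strands, had 1, 12 and 5 reads, then 19, 22 and 34, then 19, 2 and 1. TD139 mouse 1 overlapped the vehicle mice, and limma voom called Uhrf1 lower with TD139. Pcna had 1351, 1406 and 1269 reads in naïve, 1304, 1538 and 1414 in vehicle and 1132, 1360 and 1142 in TD139 mice, and its log2 fold changes of −0.03 (SE 0.10, adjusted p = 0.876) and −0.14 (SE 0.10, adjusted p = 0.286) were the smallest of this group. Tyms, thymidylate synthase, differed by 0.26 (adjusted p = 0.425) and −0.21 (adjusted p = 0.440), with 91 to 100, 109 to 130 and 81 to 122 reads.

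Of the replication licensing genes, Mcm3 and Mcm6 passed with TD139 and none passed with light and vehicle in edgeR. The 6 subunits of the MCM2-7 helicase summed to 68.2 to 73.4 CPM in naïve, 62.7 to 80.0 in vehicle and 59.1 to 68.1 in TD139 mice. None of the 8 genes had an unadjusted p under 0.05 with light and vehicle either, where 14.4% of all genes were higher and 13.2% lower at that threshold, and their median log2 fold change was 0.00. With TD139, Mcm3 and Mcm6 were called lower and the median was −0.30. Mcm3 had 140, 154 and 107 reads in naïve, 142, 164 and 220 in vehicle and 114, 68 and 86 in TD139 mice, and fell by 0.87 (SE 0.26, adjusted p = 0.0262). Mcm6 had 56, 66 and 57 reads, then 88, 81 and 129, then 62, 34 and 54, and fell by 0.88 (SE 0.30, adjusted p = 0.0409). In both genes the TD139 mice lay below all vehicle mice, and mouse 2 was the lowest. Both calls were lost without vehicle mouse 3, TD139 mouse 2 or TD139 mouse 3, and that of Mcm6 also without naïve mouse 2 or vehicle mouse 1.

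The other subunits did not pass. Mcm2 had 307, 467 and 547 reads in naïve, 389, 451 and 669 in vehicle and 439, 425 and 286 in TD139 mice (log2 fold changes 0.08, adjusted p = 0.844, and −0.30, adjusted p = 0.327). Mcm4 differed by −0.18 (adjusted p = 0.380) and 0.16 (adjusted p = 0.347), with 397 to 526 reads in all mice. Mcm7 differed by −0.08 (adjusted p = 0.745) and −0.04 (adjusted p = 0.843), with 490 to 647 reads, and its exons overlap Ap4m1 and Cops6 on the opposite strand. Mcm5 and the loading factors Cdc6 and Cdt1 likewise passed in neither comparison, with log2 fold changes between −0.43 and 0.22.

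Of the G1 genes, Ccnd1 passed in both comparisons in edgeR. Ccnd1 (chromosome 7, 144929931 to 144939925, minus strand) had 306, 545 and 536 reads in naïve, 718, 905 and 912 in vehicle and 554, 542 and 398 in TD139 mice. The vehicle mice were above all others, and naïve mouse 1 was the lowest of its group. Its log2 fold change was 0.76 (SE 0.20, adjusted p = 0.0420) with light and vehicle and −0.68 (SE 0.20, adjusted p = 0.0240) with TD139, and its exons overlap those of LTO1 on the opposite strand. The first call held in 1 of the 9 fits with a mouse left out, that without TD139 mouse 1, where the adjusted p in the other fits reached 0.112. The second was lost without vehicle mouse 2 or 3 or TD139 mouse 2 or 3.

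Both Cdk2 and Cdk4 were lower with TD139. Cdk2, the partner of cyclin E, had 80, 63 and 78 reads in naïve, 138, 123 and 135 in vehicle and 78, 67 and 68 in TD139 mice, with all vehicle mice above the others. It missed the threshold with light and vehicle (log2 fold change 0.73, SE 0.21, adjusted p = 0.0555), which DESeq2 and limma voom called, and fell with TD139 (−0.80, SE 0.21, adjusted p = 0.0158). The call of Cdk2 with TD139 was lost without TD139 mouse 2 or 3. Its exons overlap Pmel, a pigment gene, on the opposite strand. Cdk4 had 1657, 1555 and 1619 reads in naïve, 1718, 1805 and 1977 in vehicle and 1438, 1230 and 1251 in TD139 mice, so that the TD139 mice lay below both other groups. Its log2 fold change was 0.08 (SE 0.10, adjusted p = 0.645) with light and vehicle and −0.40 (SE 0.10, adjusted p = 0.0140) with TD139. The call of Cdk4 was lost without vehicle mouse 3 or TD139 mouse 2 or 3, and also with the offset for transcript length and GC content described below. Cdk6 had 7 to 20 reads in all mice and passed in neither comparison.

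The remaining cyclins of G1 varied between mice. Ccnd2 had 39, 105 and 76 reads in naïve, 123, 411 and 100 in vehicle and 187, 43 and 51 in TD139 mice. Its highest value came from vehicle mouse 2, the mouse with 9516 CPM of lens markers, and without that mouse its log2 fold change with light and vehicle was 0.50 in place of 1.43 (adjusted p = 0.653 and 0.254). Whether lens tissue contributed these reads was not tested. Ccne1 had 188, 159 and 176 reads, then 172, 202 and 249, then 172, 135 and 122 (log2 fold changes 0.14, adjusted p = 0.669, and −0.45, adjusted p = 0.0951). The second of these was called by limma voom. Ccne2 had 74 to 93, 62 to 85 and 91 to 128 reads and differed by −0.26 (adjusted p = 0.494) and 0.60 (adjusted p = 0.0626), with the TD139 mice highest. E2f1, also of this group, had 71, 81 and 82 reads, then 104, 99 and 128, then 65, 58 and 78, with the vehicle mice above all others. Its log2 fold changes were 0.39 (adjusted p = 0.291) and −0.62 (adjusted p = 0.0581). The second was called with library size alone and at a mean of at least 50 counts. The summed level of the 8 G1 genes was 96.3 ± 2.77 CPM in naïve, 119 ± 9.54 in vehicle and 85.4 ± 10.1 in TD139 mice.

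Of the CDK inhibitor genes, Cdkn1a was called lower with TD139 in edgeR, while limma voom also called it higher and Cdkn2c lower with light and vehicle. Cdkn1a had 90, 80 and 231 reads in naïve, 206, 250 and 474 in vehicle and 89, 48 and 116 in TD139 mice, and in each group mouse 3 was the highest. Naïve mouse 3 lay within the range of the vehicle mice, and the log2 fold change with light and vehicle was 1.10 (SE 0.48, adjusted p = 0.176). It was 1.73 without naïve mouse 3 and 0.70 without vehicle mouse 3. In no fit with a mouse left out was Cdkn1a called higher. With TD139 Cdkn1a fell by 1.75 (SE 0.50, adjusted p = 0.0252), without overlap, and this call was lost without vehicle mouse 3 or TD139 mouse 1 or 2. Cdkn1b, the gene of p27, was the most abundant of the 45 genes by reads, with 2335, 2461 and 2578 in naïve, 2789, 2669 and 2494 in vehicle and 2347, 2870 and 2668 in TD139 mice, and differed by 0.00 (SE 0.10, adjusted p = 0.983) and 0.07 (SE 0.10, adjusted p = 0.587). Cdkn2c had 699, 686 and 702 reads, then 475, 700 and 576, then 562, 622 and 444, with log2 fold changes of −0.36 (SE 0.15, adjusted p = 0.141) and −0.02 (SE 0.15, adjusted p = 0.911).

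Fold changes can also follow the length and GC content of transcripts, and a fit with an offset for both was therefore made. In this fit 9 of the genes (21.4%) were lower with TD139, against 8.34% of all genes. The log2 fold change of Cdk4 was −0.00 in place of −0.40 (adjusted p = 0.994), that of Ccnb2 was −0.57 (adjusted p = 0.179), that of Cdc20 was −0.94 (adjusted p = 0.0629) and that of Cdkn1a was −1.34 (adjusted p = 0.0975). These 4 genes have longest transcripts of 2053, 1531, 1793 and 2080 bases. Cdk1, Mki67, Top2a, Rrm2, Tk1, Ccnd1, Cdk2, Mcm3 and Mcm6 were still called lower and Ccna2 higher.

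Levels of Mki67 and Top2a are set beside the summed markers of microglia here. Vehicle-treated mouse 3 had the highest Mki67 level, at 3.93 CPM, and the highest sum of microglia markers, at 645 CPM. Among the TD139 mice, mouse 1 had 0.482 CPM of Mki67 and 217 CPM of microglia markers, whereas mice 2 and 3 had 0.0696 and 0 CPM of Mki67 and 72.5 and 62.3 CPM of microglia markers. Vehicle mice 1 and 2 had 2.86 and 3.00 CPM of Mki67 and 480 and 356 CPM of microglia markers. Top2a was ordered otherwise. In vehicle mice 1, 2 and 3 it stood at 0.894, 3.04 and 2.52 CPM, with the highest value beside the lowest microglia sum. In TD139 mice 1, 2 and 3 it stood at 0.408, 0.0696 and 0.474 CPM. Astrocyte markers also summed highest in vehicle mouse 3 and, among TD139 mice, in mouse 1, at 431 and 98.3 CPM. Müller glia markers did so as well, at 8870 and 7485 CPM. Naïve mice had between 0 and 5 reads of Mki67 and TD139 mice 2 and 3 had 2 and 0, too few to order these mice. TD139 mouse 1 had 13 reads, so its place above mice 2 and 3 rests on few reads. For Top2a, naïve and TD139 mice had at most 12 reads each. The part of microglia, astrocyte or Müller glia numbers in these levels was not tested. Markers of T, B and NK lymphocytes summed to at most 2.72 CPM in any mouse, with 3 of 11 at 0 in every mouse, and those of infiltrating monocytes and neutrophils to 29.4 to 34.9 CPM in naïve, 39.8 to 54.7 in vehicle and 34.2 to 38.7 in TD139 mice. Of these 12 infiltrating cell markers just 3 were tested. With light and vehicle 1 of them (33.3%, against 4.91% of all genes) was higher (log2 fold change 2.38, adjusted p = 0.0318). With TD139 none was lower in edgeR, against 16.2% of all genes.

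Further genes of the cycle were taken from lists of the same pathways. Among 41 tested genes of mitosis and cytokinesis, Pbk, a mitotic kinase, had 0 reads in all naïve mice, 20, 13 and 22 in the vehicle mice and 3, 0 and 0 in the TD139 mice. It passed the filter on low reads only through the vehicle mice, so that its calls are not independent of the filter. It was higher with light and vehicle (adjusted p = 0.0219) and lower with TD139 (log2 fold change −3.95, SE 0.89, adjusted p = 0.0120). Smc4, a condensin subunit, and the kinesin gene Kif20b were lower with light and vehicle (log2 fold changes −0.61, adjusted p = 0.0386, and −1.19, adjusted p = 0.0246) and higher with TD139 (0.84, adjusted p = 0.00604, and 1.09, adjusted p = 0.0103). In all, 1 gene of this list was higher (2.44%, against 4.91% of all genes) and 2 were lower (4.88%, against 2.89%) with light and vehicle, and 3 were higher (7.32%, against 17.2% of all genes) and 6 lower (14.6%, against 16.2%) with TD139. The median log2 fold changes were −0.01 and −0.05. Kif22, a chromosome kinesin gene, was the 1 gene of this list (2.44%, against 2.38% of all genes) lower in TD139 than in naïve mice (−0.66, adjusted p = 0.0431).

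Of 35 tested genes of origin firing and the replication fork, none was called with light and vehicle in edgeR, with 1 higher and 5 lower at an unadjusted p under 0.05, against 14.4% and 13.2% of all genes. With TD139, 5 were lower (14.3%, against 16.2% of all genes) and 2 higher (5.71%, against 17.2%). Chaf1b, a subunit of the chromatin assembly factor that follows the fork, had 16, 24 and 28 reads in naïve, 37, 42 and 69 in vehicle and 9, 10 and 5 in TD139 mice, and fell by 2.52 with TD139 (SE 0.41, adjusted p = 0.00567). Orc4, of the origin recognition complex, was 0.57 higher (adjusted p = 0.0111). Against naïve mice, Rpa2, of the same single-strand binding complex as Rpa1, and Dut, which removes dUTP, were lower in TD139 mice (log2 fold changes −0.54, adjusted p = 0.0406, and −0.51, adjusted p = 0.0488), or 5.71% of this list against 2.38% of all genes. Rpa1, which had the most reads of this list, differed by 0.04 (adjusted p = 0.815) between TD139 and vehicle mice.

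Among 14 further CDK regulators, Ccnd3, the gene of cyclin D3, had 1817, 1731 and 1841 reads in naïve, 2820, 2840 and 3702 in vehicle and 1950, 1620 and 1495 in TD139 mice. The vehicle mice were above all others, with log2 fold changes of 0.68 (SE 0.12, adjusted p = 0.0171) and −0.79 (SE 0.12, adjusted p = 0.00500), as for Ccnd1. With TD139, 4 genes of this list were lower (28.6%, against 16.2% of all genes) and 1 higher (7.14%, against 17.2%), which was Skp2 (0.51, adjusted p = 0.0242). Mnat1, of the CDK-activating kinase, was lower in TD139 than in naïve mice (−0.46, adjusted p = 0.0497), 1 of 14 genes (7.14%, against 2.38% of all genes). Of 17 pocket protein, E2F and Myb factors, none was called with light and vehicle in edgeR, with 1 higher and 3 lower at an unadjusted p under 0.05, against 14.4% and 13.2% of all genes, and 3 were higher with TD139 (17.6%, against 17.2% of all genes), namely Lin54 of the DREAM complex (0.75, adjusted p = 0.0242) and the pocket protein genes Rbl2 (0.37, adjusted p = 0.0256) and Rbl1 (0.56, adjusted p = 0.0434).

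The last list held 26 tested targets of p53 and genes of growth arrest, to which Cdkn1a is related by function. With light and vehicle 3 rose (11.5%, against 4.91% of all genes), the death receptor gene Fas (log2 fold change 2.85, SE 0.53, adjusted p = 0.0192), Phlda3 (0.78, SE 0.19, adjusted p = 0.0344) and Gadd45b (1.32, SE 0.33, adjusted p = 0.0432). With TD139, 7 were lower (26.9%, against 16.2% of all genes) and 3 higher (11.5%, against 17.2%). Fas had 16, 9 and 23 reads in naïve, 65, 96 and 218 in vehicle and 26, 12 and 10 in TD139 mice, and no mouse of the other groups reached the vehicle mice. It fell by 2.87 with TD139 (SE 0.53, adjusted p = 0.00604), and Phlda3 fell by 1.30 (SE 0.19, adjusted p = 0.00500). The abundant genes Ei24 and Ccng1 did not pass in either comparison (log2 fold changes between −0.10 and 0.31).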

How the data were processed

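Retinal RNA of 9 mice in 3 groups of 3 was sequenced from stranded mRNA libraries in 2 runs per mouse, and the mouse is the replicate. Whole-number counts of reads per gene symbol, made by the authors with BaseSpace RNA Express, were deposited for every run. The paper names counts normalized with DESeq2, but the deposited values are unscaled and were used as counts. The build mm10 comes from the submitters' processing notes, and the aligner, annotation and strand setting are not given in the sources used here. Reads outside genes (16.5 to 22.8%) and ambiguous reads (0.303 to 0.471%) were left out.

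Both runs of a mouse were summed (chi-square per degree of freedom over genes 1.63 to 1.80 between runs, 16.7 to 73.1 between mice of a group). All groups were fitted together in edgeR 4.0.16 (R 4.3.3) after filterByExpr and TMM, by quasi-likelihood F tests with robust dispersions, and p-values were adjusted by Benjamini and Hochberg over 15196 genes. Of the 45 cell cycle genes, Aurkb, Bub1 and Ccnb1 did not pass the filter. The standard error (SE) is the log2 fold change divided by the root of F. CPM used effective library sizes, and counting intervals and the floor of 3 reads cover counting error only. Positions and transcript lengths are those of GENCODE M21 (GRCm38), joined by symbol (21777) or older symbol (1275), with 368 symbols not joined.

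The genes and lists were chosen with earlier results of these data known. Full values are given for every gene called in a comparison and, in each role group, for up to 3 others with the highest mean count. Of the pathway lists, up to 3 called genes with the lowest adjusted p and 2 of the most abundant were named, and others only by their count. The genes named for values outside this rule, such as Birc5, Uhrf1 and Aurkb, were chosen after these were seen. Alternatives were DESeq2 1.42.0, limma 3.58.1 voom with sample weights, RLE or library size alone, no filter or a mean of at least 50 counts, a fit of just the pair of groups at issue, a replicate block, single runs, an offset for transcript length and GC content (splines with 4 degrees of freedom), and each mouse left out. The steps were tested on simulated data.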

Additional observations from a re-analysis of the deposited data

How the results depend on the processing

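Depth limits 14 genes below 1 CPM in naïve mice, where a few reads set the fold change, and 3 mice a group leave calls open to single mice. No difference that had passed reversed its direction in an alternative. In the 12 settings other than leaving out a mouse, Ccnd1, Cdk1, Mki67 and Top2a were called higher with light and vehicle wherever they were tested.

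Genes higher with light and vehicle numbered 9 with DESeq2 (20%, against 7.02% of all genes) and 10 with limma voom (23.8%, against 12.3%). At a mean of at least 50 counts the number was 1 of 27 (3.7%, against 4.64%). With a mouse left out it ran from 0 without naïve mouse 2 (0%, against 0.00647%) to 8 without TD139 mouse 1 (18.2%, against 7.56%). Genes lower numbered 3 with limma voom (7.14%, against 10.2%), 1 with the length and GC offset (2.38%, against 12.8%) and 2 with the replicate block and that offset together (4.76%, against 11.5%). With TD139 against vehicle, 3 were higher with limma voom (7.14%, against 23.4%). With a mouse left out from 0 to 2 were higher, the 2 without vehicle mouse 1 (4.76%, against 14.4%). In the same comparison 7 were lower at a mean of at least 50 counts (25.9%, against 18.6%). From 3 (6.82%, against 4.91%) to 16 (36.4%, against 19.0%) were lower with a mouse left out. With TD139 against naïve, 3 were higher with limma voom (7.14%, against 19.9%) and 1 without a filter (2.22%, against 2.18%). With a mouse left out from 0 to 1 were higher, the 1 without naïve mouse 3 (2.27%, against 9.87%). Genes lower numbered 1 with DESeq2 (2.22%, against 6.03%) and 5 with limma voom (11.9%, against 16.2%). With a mouse left out from 0 to 1 were lower, the 1 without TD139 mouse 1 (2.27%, against 3.97%). The log2 fold change of Mki67 with light and vehicle was 8.41 in the first run alone and 4.24 in the second. The cause of these shifts was not tested, except that the stricter filter tested fewer genes. Library size alone moved the median of all genes to 0.09 with light and vehicle and −0.10 with TD139 against vehicle, and gave 7 genes higher (16.7%, against 5.88% of all genes) and 14 lower (33.3%, against 20%).

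Mice of different groups share only a replicate number. Deviations of same-numbered mice correlated at −0.259 to 0.282, so the numbers do not pair them. With the replicate block, 7 genes were higher with light and vehicle (16.7%, against 3.68% of all genes), with Birc5 and Cdkn1a gained, and with TD139 1 was higher (2.38%, against 16.0%) and 14 were lower (33.3%, against 15.4%), with Birc5 gained. With the length and GC offset added, Birc5 and Cdkn1a were again among 7 genes higher with light and vehicle (16.7%, against 5.75% of all genes). With TD139, 9 were lower in that fit (21.4%, against 7.65%) and Ccna2 was higher (2.38%, against 12.8%). Among the lower genes Birc5 was again gained, and Mcm3, Tk1, Cdk4, Ccnb2 and Cdc20 were lost.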
